A study of Mus musculus with 11 samples.

Results

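The comparison described here sets livers of mice that carry mutant β-catenin, and no added Myc, against wild-type livers. Its members were chosen by the mutation status in the sample labels, which gave 3 arrays labelled β-catΔEx3 and 4 arrays labelled WT, 7 of the 11 arrays in the series. The other 4 arrays, from mice that carry β-catΔEx3 together with Myc, were not used. The study concerns mouse models of hepatoblastoma, the commonest liver cancer of young children, and this contrast asks which genes differ when the β-catenin mutation is present by itself.

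β-catΔEx3 names a β-catenin that lacks the part encoded by exon 3, which carries the phosphorylation sites that mark the protein for destruction. All mice were labelled male and were of a mixed background, mostly B6SJL with a minor 129S6 share, and none was treated. The labels gave an age of 22 to 40 days for WT arrays 1 to 3 and β-catΔEx3 arrays 1 and 2. WT array 4 came from a mouse of 31 days and β-catΔEx3 array 3 from one of 30 days. Total RNA of liver tissue was labelled with Cy3 and hybridised to Agilent arrays with 1 colour. The series' design text speaks of livers that bear tumours, while the labels do not say whether a mutant sample was tumour or the tissue around it. The promoter, virus or Cre that brought the allele into the liver is not given in the sources used here.

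In the liver, Wnt ligands from the endothelium of the central vein stabilise β-catenin in the neighbouring hepatocytes, where it partners Tcf and Lef factors on DNA. This gradient divides the lobule: perivenous hepatocytes near the central vein make glutamine, take up ammonium and carry much of the drug metabolism, while periportal hepatocytes break down amino acids, make urea and secrete many plasma proteins. Genes of glutathione supply and detoxification are classic targets of a different factor, Nrf2, which Keap1 holds at a low level until oxidants or electrophiles appear. Nrf2 binds the antioxidant response element.

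Short stretches before the transcription starts of 5 genes called higher show what each kind of motif looks like. The genes were picked because their windows hold a match, not for the size of their rise, and most genes that rose hold none. The stretches were read from RefSeq windows on GRCm38.p6 that run from 250 bases before to 50 after each start, in the direction of the gene, and capitals mark the motif. CTTTGAT is the core that Tcf and Lef factors prefer, and it is shown for Sp5, a feedback target of the pathway, and Slc1a2, a glutamate transporter of perivenous hepatocytes. TGACNNNGC is the core of the antioxidant response element, and it is shown for Txnrd1 (thioredoxin reductase), Abcc2 (an exporter into bile) and Ugdh (the enzyme that makes UDP-glucuronic acid). The motifs of Slc1a2 and Txnrd1 are read from the opposite strand.
Sp5, chr2:70474799-70474845, plus strand: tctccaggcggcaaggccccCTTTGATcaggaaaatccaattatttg
Slc1a2, chr2:102706211-102706257, plus strand: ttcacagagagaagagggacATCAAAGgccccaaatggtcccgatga
Txnrd1, chr10:82859094-82859142, plus strand: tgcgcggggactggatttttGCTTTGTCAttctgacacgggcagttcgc
Abcc2, chr19:43782190-43782238, plus strand: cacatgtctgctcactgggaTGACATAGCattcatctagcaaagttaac
Ugdh, chr5:65435946-65435994, minus strand: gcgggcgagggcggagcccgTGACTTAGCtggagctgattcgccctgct

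Both motifs are short, and a match is a description of letters, not of a bound site. Searched on both strands, CTTTGAT stood in the windows of 3.08% of the 10802 tested genes with a window, and in 3.34% of the 2305 called higher and 3.15% of the 1842 called lower. TGACNNNGC stood in 16.5% of the tested genes, 18.4% of those called higher and 16.9% of those called lower. Among the 12 glutathione supply genes that were called higher and had a window, 5 held TGACNNNGC, as did 1 of 12 glutathione transferases (8.33%) and 4 of 14 further Nrf2 targets. Among 8 such perivenous genes, 2 held CTTTGAT, and so did 1 of the 8 periportal genes called lower that had a window (12.5%). Each stretch shown was picked for 1 of the 2 motifs, so the stretches cannot tell whether the motifs occur together.

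Levels are given as log2 of the scanner's processed signal relative to the upper quartile of the same array, so 0 is that quartile and a difference of 1 is a 2-fold change. A gene was called when limma gave a Benjamini-Hochberg adjusted p below 0.05 over the 21305 items tested, of which 13588 carry a gene symbol. Called genes numbered 7867 (36.9%), 4435 higher in β-catΔEx3 (20.8%) and 3432 lower (16.1%). The groups did not overlap for 9513 items (44.7%). They did not overlap for 7652 of the 7867 called, so a lack of overlap adds little to a call. Over all items the median log2 fold change was 0.09, and counts for a gene group below are read against these shares. The labels do not say more than that each array is a separate sample, so p-values measure the spread between these samples.

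Several features of the arrays bear on every result. Between 47.9% and 49.8% of probes were well above background on each array. Log2 profiles correlated at 0.975 to 0.99 within WT, at 0.972 to 0.98 within β-catΔEx3 and at 0.916 to 0.934 across groups. WT arrays 1 to 3 shared slide 1, β-catΔEx3 arrays 1 and 2 shared slide 2, and only slide 4 held both groups, with WT array 4 and β-catΔEx3 array 3. With slide as a fixed block, which leaves the slide 4 pair as the whole contrast, 853 items were called higher and 976 lower (8.58%), none of them opposite in sign to the unblocked calls.

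Markers of sex went against the labels on 3 arrays. Xist, the RNA that silences an X chromosome in females, stood at -6.49, 1.70, 1.92 and -5.30 on WT arrays 1 to 4 and at 1.86, -6.21 and -6.44 on β-catΔEx3 arrays 1 to 3. The Y-linked gene Ddx3y stood at 2.96, -6.29, -6.26 and 2.54 in WT and at -6.14, 2.65 and 2.86 in β-catΔEx3. WT arrays 2 and 3 and β-catΔEx3 array 1, all labelled male, thus had Xist signal and no Y-linked signal. With the Xist signal as a block, an alternative chosen after seeing the data, 3955 items were called higher and 3166 lower, and 6913 calls were shared with the same sign. Without those 3 arrays, which leaves 2 arrays a group, 746 were called higher and 914 lower, 1566 of them shared and none opposite.

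Only slide 4 compares the groups side by side, and its direction followed the rest. Of 3707 items called higher on the other 5 arrays alone, 3485 (94%) were also higher in β-catΔEx3 array 3 than in WT array 4, and of 2909 called lower, 2731 (93.9%) were also lower. Among those changed at least 8-fold on the other 5 arrays, 257 of 260 rises and 338 of 344 falls kept their direction. Items not called on the other 5 arrays also kept their direction in 66.2% of cases above 0 and 72.1% of cases below 0. Over all items with a value, 51.4% were higher in the mutant array of slide 4. The median rise was 1.11 on the other 5 arrays and 0.86 on slide 4 for the items called higher there, and -1.51 against -1.26 for those called lower.

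**Figure D1:**
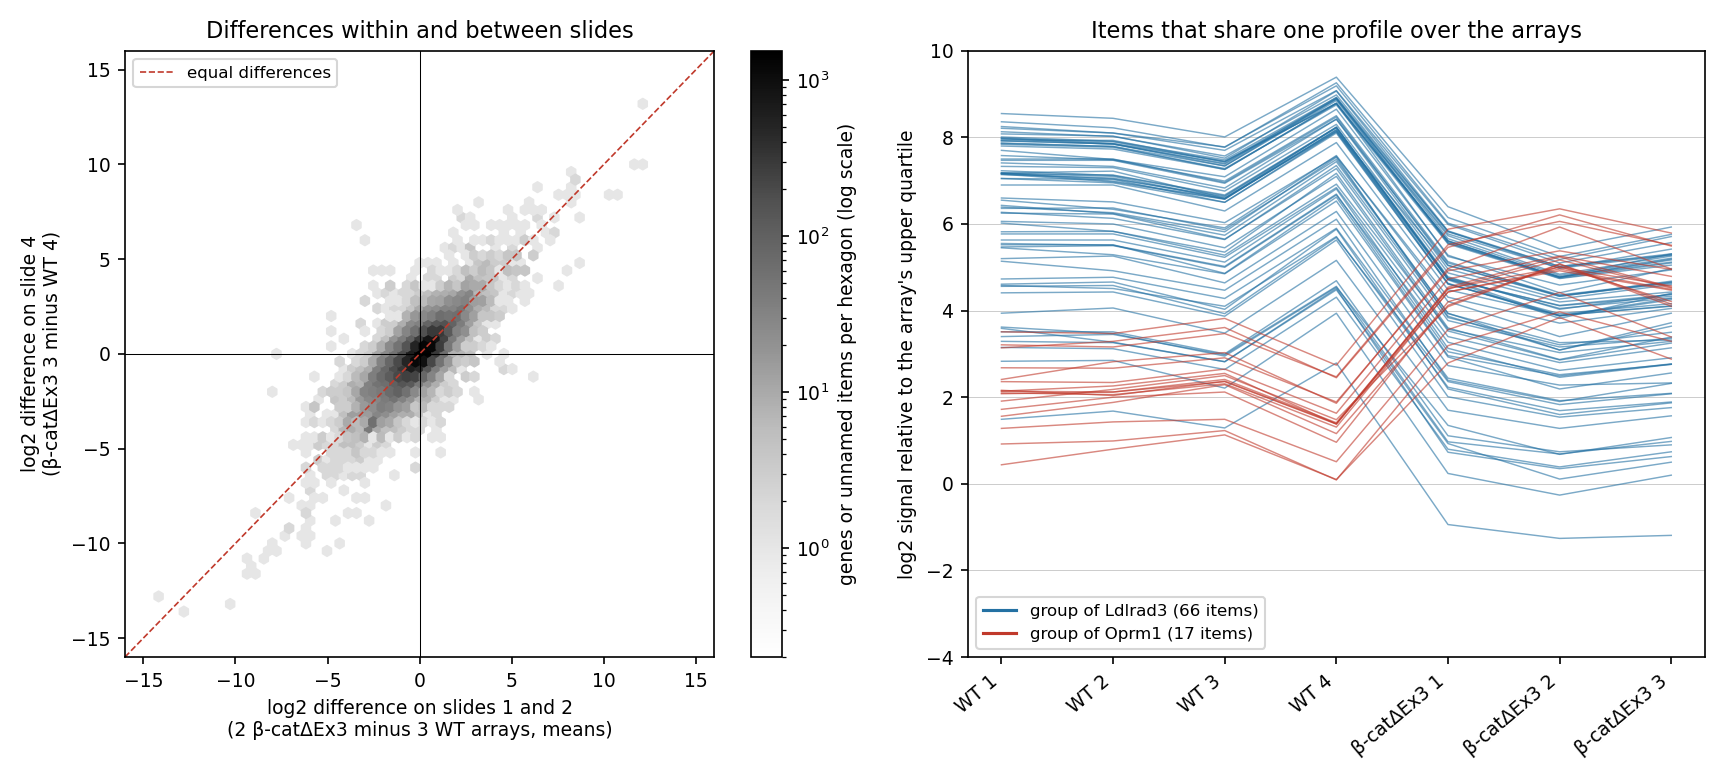
Left, each item's log2 difference on slide 4 (y axis, β-catΔEx3 array 3 minus WT array 4) against the difference of means on slides 1 and 2 (x axis), with darker hexagons holding more items; most items lie along the dashed line of equal differences. Right, log2 signal on the 7 arrays (one line per item) of the 66 items that share the profile of Ldlrad3, all lower in β-catΔEx3, and of the 17 that share that of Oprm1, all higher.

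The targeted gene itself gave no check of the labels. Ctnnb1, which encodes β-catenin, stood at 3.44, 3.54, 3.52 and 3.81 in WT and at 3.31, 3.38 and 3.54 in β-catΔEx3, a log2 fold change of -0.17 ± 0.15 (SE; limma adjusted p = 0.43). Whether its probe lies within the deleted exon was not determined. Among 23 tested Wnt transducers 4 were called higher and 6 lower, with a median log2 fold change of -0.01, and the rises numbered 1 without WT array 2 and 2 without WT array 3 or β-catΔEx3 array 1. Tcf7l1 and Tcf7l2, DNA-binding partners of β-catenin, both fell: Tcf7l2 from 1.07, 1.04, 0.95 and 1.15 in WT to -0.16, -0.24 and -0.18, a change of -1.25 ± 0.13 (adjusted p = 0.000646). The destruction-complex scaffold Apc changed by -0.74 ± 0.19 (adjusted p = 0.0175).

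Feedback targets of the pathway, which Wnt signalling switches on and which act back on it, were higher: 5 of 11 tested rose and none fell, with a median of 1.14. In the slide 4 pair 8 of 11 were higher, with a median of 0.31. Sp5, a transcription factor of this loop, stood at 0.30, -0.61, -0.75 and 0.11 in WT and at 2.59, 3.33 and 2.60 in β-catΔEx3, and rose by 3.07 ± 0.32 (adjusted p = 0.000593). Nkd1, which binds Dishevelled and restrains the signal, rose by 2.12 ± 0.18, from 0.59, 0.40, 0.81 and 0.78 to 2.93, 2.90 and 2.47. For both genes every mutant array lay above every WT array. Lgr5, a receptor for R-spondins, changed by 2.26 ± 0.22. The count was 3 without β-catΔEx3 array 1. With slide as a block 1 of the 11 stayed called, Nkd1, at an adjusted p of 0.0306.

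Axin2, the most used reporter of the pathway, did not pass the test in this comparison at the brighter of its 2 kept probes. It was above background on 1 of 4 WT arrays and on all 3 mutant arrays. Its levels were -3.76, -6.33, -6.31 and -3.88 in WT against -3.80, -2.70 and -2.26, so β-catΔEx3 array 1 overlapped WT arrays 1 and 4. The log2 fold change was 2.15 ± 0.77 (adjusted p = 0.0607), with 0.0402 without WT array 1, 0.0417 without WT array 4 and 0.00458 with the Xist block. The 2 WT arrays with the lowest Axin2 values are those with Xist signal. A part of sex in that order was not tested. The other Axin2 probe was not read alone. With the mean of each gene's probes, 6 feedback targets were called higher instead of 5.

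Of 24 tested perivenous hepatocyte genes 13 were higher and 2 lower, with a median of 0.81. In the slide 4 pair 14 of 24 were higher, with a median of 0.36, and with slide as a block 6 were called higher and 2 lower. Slc22a3, a transporter of organic cations, stood at -4.41, -3.37, -4.69 and -3.45 in WT, above background on 2 of those arrays, and at 1.32, 1.36 and 0.84 in β-catΔEx3. It rose by 5.15 ± 0.36 (adjusted p = 0.000122), a 35.6-fold change, and by 4.29 on slide 4. Lhpp, a phosphatase that acts on histidine phosphate, rose from 5.58, 5.14, 5.37 and 5.30 to 9.18, 9.33 and 8.45, a change of 3.64 ± 0.24. Oat, ornithine aminotransferase, Rhbg, an ammonium transporter, and the glutamate transporter Slc1a2 changed by 4.18 ± 0.37, 3.98 ± 0.24 and 3.96 ± 0.23. Groups did not overlap for any of these 5 genes, as for most called items.

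The perivenous group did not move as a block. Glul, glutamine synthetase and the classic marker of the last hepatocytes around the central vein, stood at 6.65, 6.37, 6.32 and 7.24 in WT and at 7.43, 9.12 and 8.23 in the mutant. Its rise of 1.61 ± 0.41 (adjusted p = 0.0178) was smaller than that of Oat or Rhbg, and 0.99 on slide 4. Cyp1a2 rose by 2.54 ± 0.32, whereas Cyp2e1, the alcohol-oxidising P450 of the same zone, changed by 0.30 ± 0.22 (adjusted p = 0.316) from levels of 9.68 to 10.48 in WT. Rgn, regucalcin, fell by 1.42 on the log2 scale, from 9.12, 9.12, 9.07 and 9.27 to 7.47, 8.49 and 7.21. Cyp2c54 changed by -1.37 ± 0.35 (adjusted p = 0.0179), a call lost without β-catΔEx3 array 3.

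Periportal genes were lower: 11 of 23 tested fell and 1 rose, with a median of -1.41, and 17 of 23 were lower in the slide 4 pair. Sds, serine dehydratase, stood at 3.66, 5.28, 5.56 and 5.07 in WT and at -0.34, 0.42 and -3.60 in β-catΔEx3, a change of -6.06 ± 0.93 (adjusted p = 0.00253), or -6.86 without β-catΔEx3 array 2 and -4.85 without array 3. Hsd17b6, a steroid dehydrogenase, changed from 3.19, 3.18, 2.75 and 3.07 to -0.05, -2.95 and -3.49. Its log2 fold change was -5.21 ± 0.74 and ran from -6.27 without β-catΔEx3 array 1 to -4.55 without array 3. Ctsc, the protease cathepsin C, fell by 4.21 on the log2 scale (adjusted p = 0.000477), from 3.32, 3.75, 3.5 and 3.39 to -1.83, 0.10 and -0.42. The mutant arrays spread more than the WT arrays for each of these genes, and all lay below the WT range.

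Transcripts of enzymes at the gate of urea synthesis parted ways. Gls2, the glutaminase that frees ammonia in periportal cells, stood at 5.90, 6.46, 6.36 and 6.73 in WT and at 3.90, 2.61 and 1.33, a change of -3.75 ± 0.54, or -4.39 without β-catΔEx3 array 1 and -3.11 without array 3. Otc, which joins ornithine and carbamoyl phosphate, fell by 2.91 on the log2 scale, from 6.6, 6.49, 6.51 and 7.10 to 3.83, 4.17 and 3.29 (adjusted p = 0.000288). Asl, which cleaves argininosuccinate in the same cycle, was the 1 periportal gene that rose, from 4.85, 5.32, 5.36 and 5.40 to 7.72, 6.58 and 6.39. Its change was 1.66 ± 0.33 (adjusted p = 0.00727) and 0.99 on slide 4. Cps1, the first enzyme of the cycle, changed by 0.40 ± 0.38 (adjusted p = 0.441).

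Transcripts for 3 successive steps of histidine breakdown were lower. Hal, which removes ammonia from histidine, changed by -4.27 ± 0.58, Uroc1, which hydrates urocanate, by -2.56 ± 0.49, and Amdhd1, which opens the ring, by -3.46 ± 0.59. In each case β-catΔEx3 array 1 was the highest of the mutant arrays, and without it the changes were -5.06, -3.25 and -4.17; for Amdhd1 the value was -2.71 without array 3. Over the whole list of 36 amino acid breakdown genes 12 were higher and 3 lower, with a median of 0.61, and the 12 rises became 5 without WT array 1 or 2, 6 without WT array 3 and 7 without β-catΔEx3 array 1. Acmsd, which diverts tryptophan breakdown away from NAD synthesis, rose most: from -0.99, -0.29, -1.15 and -0.46 to 4.81, 3.62 and 3.54, a change of 4.72 ± 0.36 (adjusted p = 0.000172). Prodh, the first enzyme of proline breakdown, changed by 2.11 ± 0.27.

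**Figure D2:**
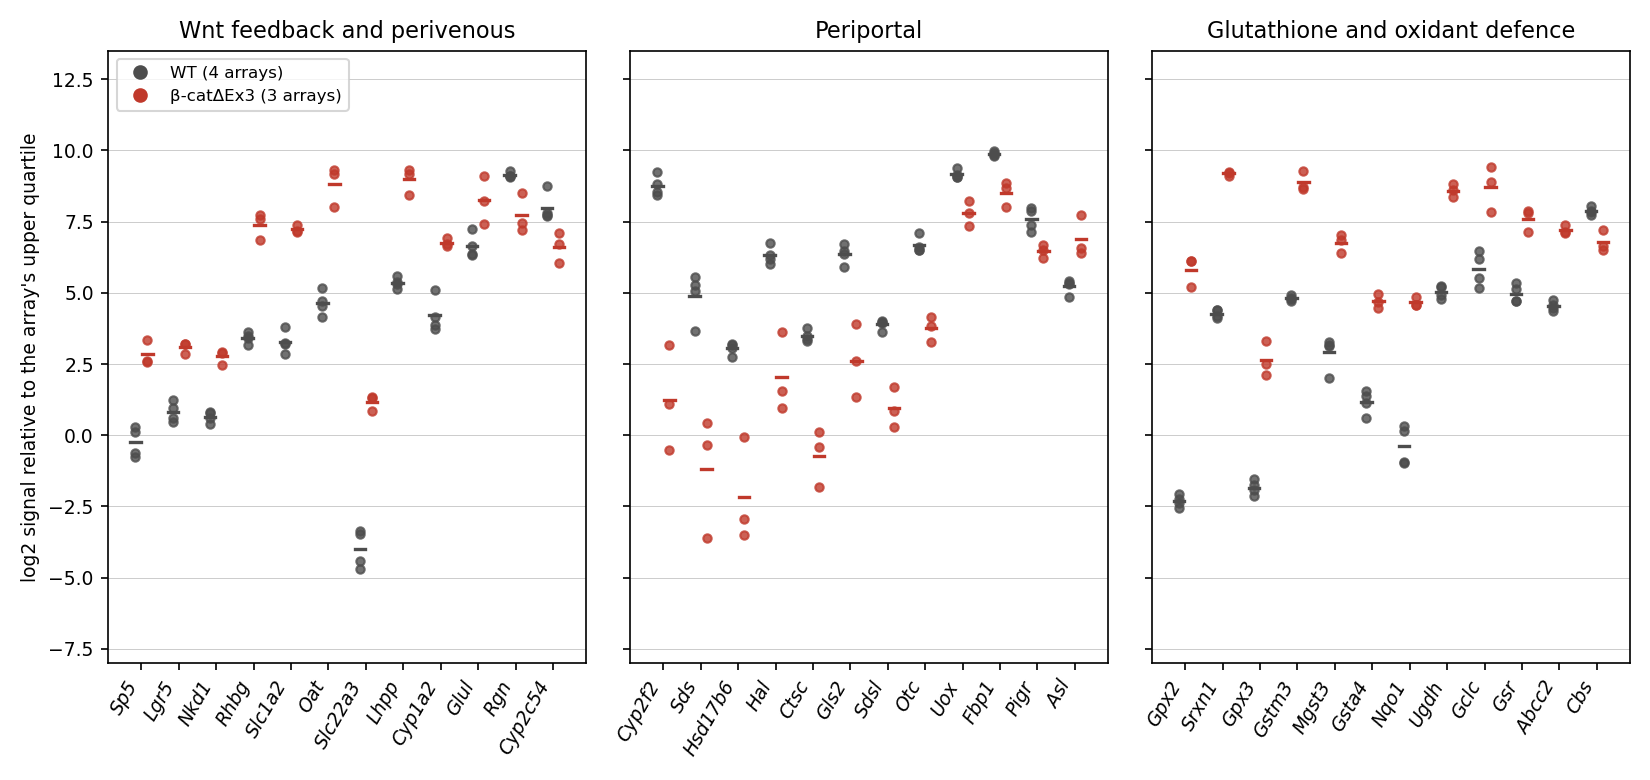
Log2 signal relative to each array's upper quartile (y axis) for 12 Wnt feedback and perivenous genes, 12 periportal genes and 12 glutathione and oxidant defence genes; grey points are the 4 WT arrays, red points the 3 β-catΔEx3 arrays, and short bars the group means. Among the genes drawn, most perivenous and glutathione genes stand higher in the mutant and most periportal genes lower. Rgn, Cyp2c54, Asl and Cbs go the other way. The genes drawn were picked and do not stand for their whole lists. In those lists 6 of 11 feedback, 9 of 24 perivenous, 11 of 23 periportal and 3 of 19 glutathione supply genes were not called.

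Transcripts of glutathione metabolism were higher: 15 of 19 glutathione supply genes rose and 1 fell, with a median of 2.11. Slc7a11, the cystine carrier that brings in the limiting amino acid, was not well above background on any WT array. In β-catΔEx3 it stood at 2.52, 1.59 and 2.64. The difference was 186-fold with background-level WT values set to the array's dimmest signal above background, which is no strict lower limit. Correcting the background with normexp instead gave a 21.1-fold difference. Gclc, the catalytic subunit of glutamate-cysteine ligase, rose by 2.87 ± 0.44, and Gsr, which reduces oxidised glutathione, by 2.62 ± 0.26. Cbs, the first enzyme of transsulfuration, was the 1 member that fell, by 1.08 on the log2 scale, while the next enzyme, Cth, changed by 2.11 ± 0.28.

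Ggt1, the surface enzyme that starts to break glutathione down outside the cell, was not well above background in WT and reached 0.31, -0.45 and -0.89 in the mutant. The difference was 30.8-fold against the dimmest signal above background (4.495-fold after normexp), with measured means of -6.49 and -0.35 and an adjusted p of 1.96e-05. Srxn1, sulfiredoxin, which restores overoxidised peroxiredoxins, was among the most even: 4.39, 4.39, 4.19 and 4.11 in WT against 9.12, 9.26 and 9.20, a 30.4-fold rise (4.92 ± 0.15, adjusted p = 3.16e-06). Gpx3, the glutathione peroxidase secreted into plasma, rose from -2.14, -1.54, -1.92 and -1.75 to 3.32, 2.10 and 2.52, and Gpx4, which reduces lipid peroxides, by 2.26 ± 0.16. No WT array reached a mutant array for any of these genes, as for most called items.

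Among 22 glutathione transferases 14 rose and none fell, with a median of 1.88; in the slide 4 pair 15 were higher, with a median of 0.96. The mu-class genes moved by graded amounts: Gstm3 by 4.06 ± 0.19, Gstm2 by 3.37 ± 0.17, Gstm4 by 2.98 ± 0.15 and Gstm1 by 1.90 ± 0.17. Gstm3 stood at 4.83, 4.92, 4.73 and 4.79 in WT and at 8.71, 9.27 and 8.65 in the mutant. The membrane-bound Mgst2 and Mgst3 changed by 5.53 ± 0.47 and 3.84 ± 0.34. The alpha-class signals of Gsta1, Gsta2 and Gm10639 were higher by 11.53 ± 0.68, 8.22 ± 0.55 and 9.63 ± 0.54, but these are close copies whose probes may share targets, so they are not 3 independent rises; Gsta1 gave 10.92 without WT array 3. A probe for chr9:78107225-78118850 on mm9, forward strand, with no symbol in the files, rose by 11.24 ± 0.55.

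Of 22 further Nrf2 targets 16 rose and 1, Akr1b8, fell, with a median of 1.75. Nqo1, a quinone reductase, stood at -0.94, 0.33, 0.15 and -0.98 in WT and at 4.85, 4.57 and 4.58 in β-catΔEx3 (5.02 ± 0.36, 32.5-fold, adjusted p = 0.000134). Ugdh rose by 3.55 ± 0.19, Cbr1, a carbonyl reductase, by 2.89 ± 0.23, and Abcc2, whose promoter stretch is printed above, by 2.65 ± 0.16. Hmox1, haem oxygenase, was more scattered at 6.91, 5.33 and 7.94 against 3.00, 3.36, 3.20 and 3.79, a change of 3.39 ± 0.55, or 4.09 without β-catΔEx3 array 2 and 2.79 without array 3. The factor's own transcript, Nfe2l2, changed by -0.18 ± 0.29 (adjusted p = 0.661), and that of its restrainer Keap1 by 0.66 ± 0.16 (adjusted p = 0.0135). The lists of glutathione supply, transferases and further Nrf2 targets kept 8, 10 and 8 called members with slide as a block.

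Transcripts of enzymes that make NADPH, which drives glutathione reduction, gave 5 rises and 3 falls of 11. The falls numbered 1 without WT array 1, 2 or 3 or β-catΔEx3 array 1 or 2. Pgd, the decarboxylating step of the pentose phosphate pathway, rose from 3.46, 3.72, 3.57 and 3.04 to 6.34, 6.14 and 7.09 (3.07 ± 0.27, adjusted p = 0.000296). G6pdx, the step before it, was called lower at -1.78 ± 0.59 (adjusted p = 0.0482), a call that was lost without WT array 1, 2 or 3 or any mutant array. Idh2, a mitochondrial source, changed by 1.72 ± 0.16.

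Of the 15 genes with the steepest rises, 4 are described next. Mogat2, which joins a fatty acid to monoacylglycerol, stood at -0.65, -0.16, -0.61 and -0.29 in WT and at 5.98, 7.31 and 6.99 in β-catΔEx3, a 146-fold rise (7.19 ± 0.32, adjusted p = 1.96e-05). Elovl7, an elongase of long-chain fatty acids, changed by 6.97 ± 0.52. Treh, trehalase, an enzyme better known from kidney and gut, was above background on 2 WT arrays and stood at 3.44, 4.42 and 2.38 in the mutant (6.89 ± 0.67). Fndc10, a protein with a fibronectin domain, rose from -1.34, -1.53, -1 and -0.61 to 6.14, 5.98 and 5.66. Among the 15 steepest falls, Hao1, the liver's glycolate oxidase, fell from 5.76, 5.43, 5.08 and 6.21 to -0.60, -0.45 and -3.17, a change of -7.03 ± 0.65, or -6.15 without β-catΔEx3 array 3.

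Conjugation genes moved both ways, with 6 of 18 UDP-glucuronosyltransferase and sulfotransferase genes higher and 5 lower. Sult2a8, a bile acid sulfotransferase, fell from 7.23, 7.11, 7.02 and 7.99 to 0.12, 1.68 and -1.17, a change of -7.12 ± 0.61, or -7.86 without β-catΔEx3 array 2 and -6.44 without array 3. Sult5a1 was not well above background on any mutant array. It was 118-fold lower against the dimmest signal above background (14.2-fold after normexp, measured means 2.22 and -4.87, adjusted p = 0.000472). Of 24 drug-metabolising P450 genes 5 rose and 4 fell, with a median of 0.04 and 3 rises without β-catΔEx3 array 1. These counts are near the shares over all items, 20.8% higher and 16.1% lower, and show no shift of the list. Cyp2j5 was likewise at background in the mutant, 22.5-fold lower by the same measure (3.16-fold after normexp, measured means -0.76 and -6.29, adjusted p = 1.79e-05). Cyp26a1, which degrades retinoic acid, changed by 3.52 ± 0.60.

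Transcripts of many secreted plasma proteins of the hepatocyte were lower, although not all. Alb, albumin, changed by -0.19 ± 0.18 (adjusted p = 0.434), at 10.45 to 11.01 in WT and 10.41 to 10.56 in the mutant. Of 22 complement genes 18 fell and none rose, with a median of -1.41, and 21 of 22 were lower in the slide 4 pair. The pore-forming components led. C9 stood at 2.11, 2.31, 1.86 and 4.39 in WT and at -6, -3.58 and -4.91 in β-catΔEx3, above background on 1 mutant array, a change of -7.50 ± 0.74, or -6.91 without β-catΔEx3 array 1 and -8.12 without array 2. C8b and C8a, which form the same complex, changed by -4.55 ± 0.50 and -4.37 ± 0.53.

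Coagulation genes fell in 15 of 22 cases with a median of -0.80, and the counts without 1 array ran from 10 to 15, with 10 without WT array 2. F7, which starts clotting with tissue factor, changed by -2.60 ± 0.29 and fibrinogen's Fga by -1.97 ± 0.28. Itih4, a plasma inhibitor chain of the acute phase, fell from 9.74, 9.62, 9.66 and 10.01 to 6.98, 6.17 and 6.05 (-3.36 ± 0.25, adjusted p = 0.00015). Of 25 plasma carriers and apolipoproteins 10 fell and 15 were not called. That count was 6 without WT array 2 or 3, and 15 after quantile normalization. Acute phase genes, which inflammation drives, gave 11 falls and 4 rises of 21, with a median of -1.37: Saa3 changed by -3.56 ± 0.58, while Orm3 and Lcn2, both of the lipocalin family, changed by 4.78 ± 0.72 and 3.71 ± 0.47. The rises numbered 2 without β-catΔEx3 array 1 or 3.

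Genes that answer growth hormone were lower: 11 of 19 in the growth hormone and IGF list fell and none rose, with a median of -1.41. Igf1, the circulating growth factor, stood at 7.46, 7.63, 7.41 and 7.37 in WT and at 4.53, 4.67 and 4.73 in the mutant, a 7.08-fold fall (-2.82 ± 0.14, adjusted p = 3.35e-05). Igfals, which holds IGF1 in plasma, changed by -3.22 ± 0.29, the receptor Ghr by -1.43 ± 0.23 and Onecut1, a liver transcription factor, by -3.68 ± 0.60. Of 14 male-biased liver genes 9 fell and none rose, with a median of -3.18, and all 14 were lower in the slide 4 pair. The mean log2 level of that list was 4.73, 3.55, 3.13 and 6.52 on WT arrays 1 to 4 and 0.45, 0.94 and 0.57 in β-catΔEx3, so the mutant arrays lay below the WT arrays with Xist signal too. Female-biased genes gave 3 rises and 3 falls of 17, with list means of 1.92, 3.52, 3.88 and -0.66 in WT and 1.6, 1.66 and 1.28 in the mutant. In the slide 4 pair 12 of the 17 were higher, with a median of 3.03 against 0 over the 7 arrays. The falls numbered 1 without WT array 1, 2 or 3 or β-catΔEx3 array 1 or 3, and 5 without WT array 4.

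Receptors and ligands of growth factors shifted in part, with 3 of 24 higher and 8 lower. Egfr, the receptor for EGF, fell from 5.68, 6.06, 6.04 and 6.69 to 3.42, 1.08 and 2.57, a change of -3.76 ± 0.52, or -3.12 without β-catΔEx3 array 2. Its ligand Btc, betacellulin, rose by 2.21 ± 0.41 and was above background on 3 WT arrays. Fgfr2, Fgfr3 and Fgfr4 changed by -2.24 ± 0.20, -1.72 ± 0.18 and -1.57 ± 0.33. Myc stood at 2.30, -0.12, 0.22 and -0.52 in WT and at 2.44, 1.39 and 2.08 in β-catΔEx3 and was not called (1.5 ± 0.65, adjusted p = 0.105). WT array 1 lay within the mutant range, and without it the change was 2.11 with an adjusted p of 0.00593.

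**Figure D3:**
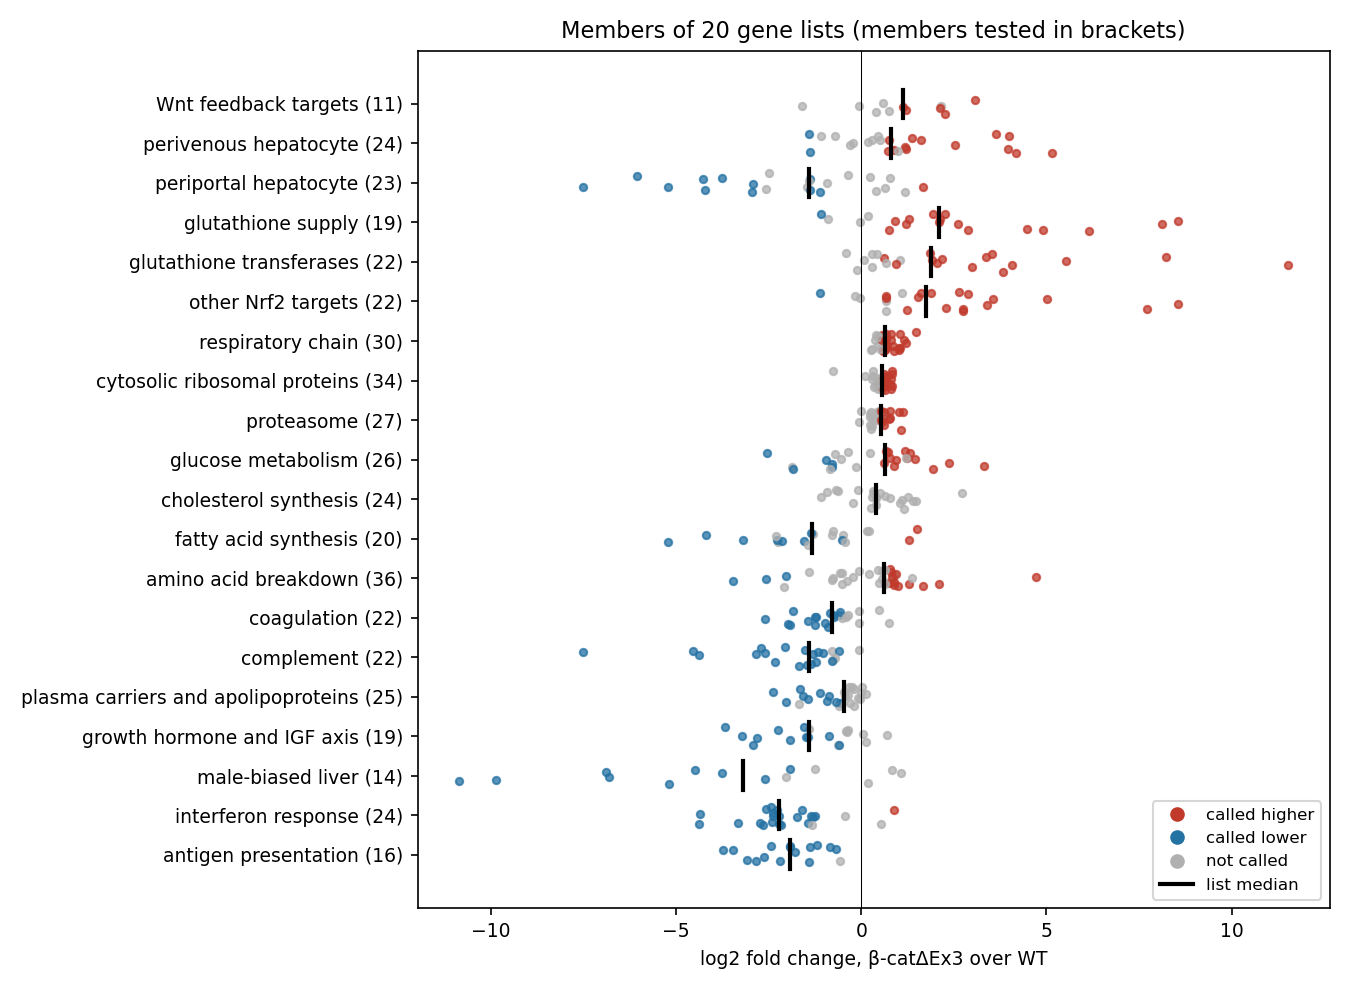
Log2 fold change, β-catΔEx3 over WT (x axis), of every tested member of 20 gene lists, with the number of tested members in brackets; red points were called higher, blue called lower and grey not called, and the black bar is the list median. Glutathione lists lie furthest right, with medians of 1.88 and 2.11, and the male-biased list furthest left at -3.18.

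Cholesterol synthesis genes separated the mutant arrays from one another. None of 24 was called by limma over the 7 arrays, and at an unadjusted p under 0.05 2 were higher and 1 lower, with a median of 0.40. The list mean was 4.64, 4.68, 4.59 and 4.44 on the WT arrays and 2.97, 6.20 and 6 on the mutant arrays. β-catΔEx3 array 1 was thus below every WT array and arrays 2 and 3 were above. Sqle, squalene epoxidase, showed this at 5.67, 5.88, 5.66 and 5.31 in WT against 3.39, 6.95 and 7.31. Idi1, an isomerase earlier in the route, stood at 6.52, 6.47, 6.04 and 6.25 against 3.63, 8.29 and 8.25.

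Without β-catΔEx3 array 1, 19 of the 24 sterol genes were called higher, with a median of 1.51. Leaving out the 3 arrays with Xist signal, of which it is one, gave 13 called higher. In the slide 4 pair 22 of 24 were higher, with a median of 1.56. Array 1 is the mutant array with Xist signal and shares slide 2 with array 2, which stood on the opposite side. The part of sex in this difference was not tested.

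**Figure D4:**
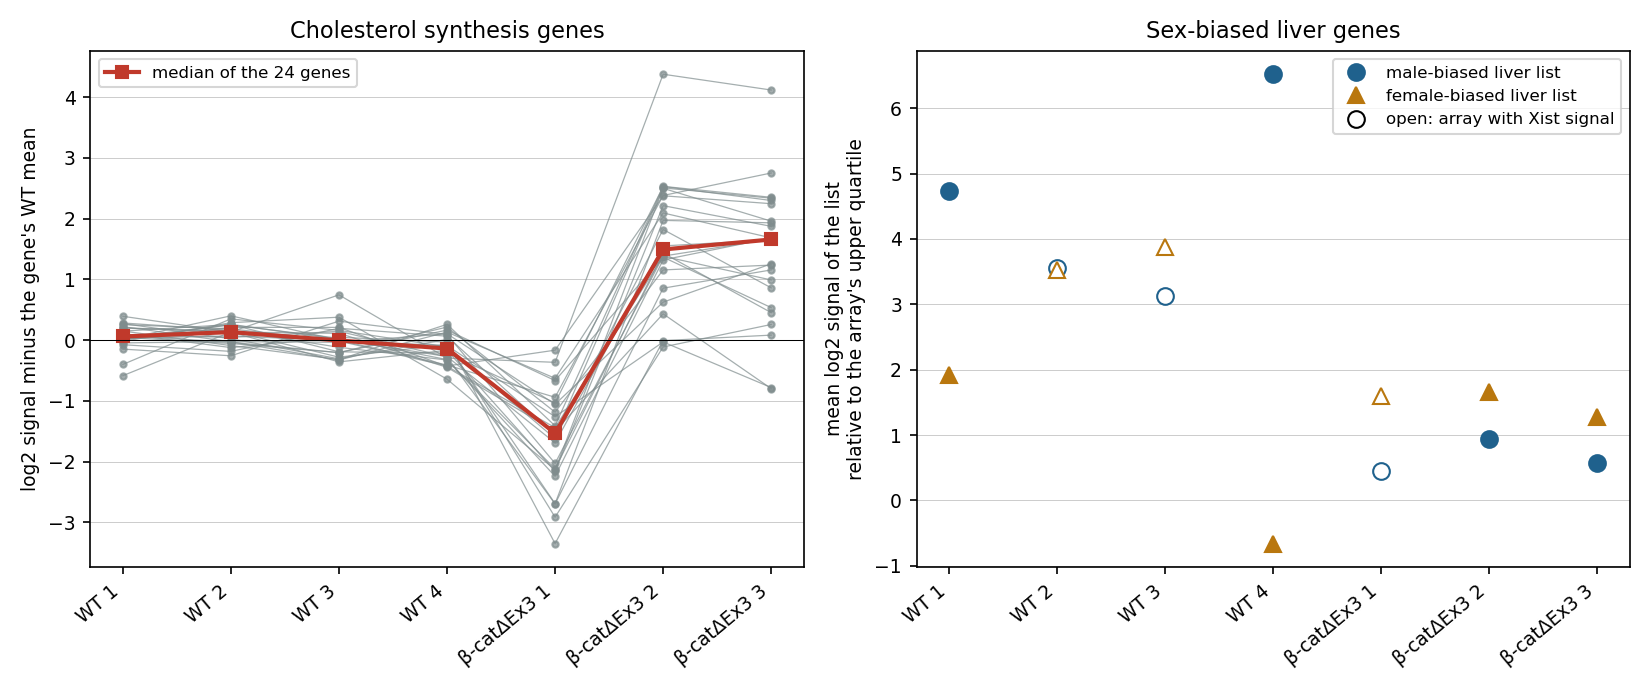
Left, log2 signal of the 24 cholesterol synthesis genes on each array minus the gene's WT mean (y axis), one grey line per gene and the median in red; β-catΔEx3 array 1 lies below WT and arrays 2 and 3 above. Right, mean log2 signal of the male-biased (circles) and female-biased (triangles) lists on each array, with open symbols for the 3 arrays with Xist signal; the male-biased mean is under 1 on all mutant arrays and above 3 on all WT arrays.

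Transcripts for other parts of lipid and energy metabolism were lower or mixed. Of 20 fatty acid synthesis genes 8 fell and 2 rose, with a median of -1.33, and the falls numbered 4 without WT array 2 or 3 or β-catΔEx3 array 1, 5 without WT array 1, 12 without β-catΔEx3 array 2 and none with slide as a block. Mlxipl, the glucose-sensing factor ChREBP, changed by -1.55 ± 0.24. Pklr, the liver's pyruvate kinase, changed by -2.55 ± 0.23, whereas Pgk1 and Pgam1, earlier in glycolysis, rose by 1.17 ± 0.14 and 1.23 ± 0.15. Glucose metabolism as a whole gave 13 rises and 5 falls of 26, or 9 rises and 8 falls when arrays were scaled on probes above background throughout.

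Transcripts of housekeeping machinery shifted by small amounts in 1 direction. Of 30 respiratory chain genes 22 rose and none fell (median 0.66), of 34 cytosolic ribosomal proteins 21 and none (0.56), and of 27 proteasome subunits 11 and none (0.53). Ndufs7 of complex I rose from 7.03, 6.6, 6.68 and 6.91 to 8.47, 8.14 and 8.23 (1.48 ± 0.17), and Psmb5, a catalytic proteasome subunit, by 1.07 ± 0.16. These counts depend on the scale and on single arrays: with quantile normalization they were 12, 4 and 7, without β-catΔEx3 array 1 12, 6 and 5, and without WT array 2 12, 7 and 6. Without WT array 3 they were 13, 8 and 6, and without WT array 4 the ribosomal and proteasome counts were 14 and 7. With slide as a block none was called, although 29 of 30, 33 of 34 and 24 of 27 were higher in the slide 4 pair.

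Ribosome biogenesis genes gave 16 rises of 30 and 1 fall, with a median of 0.72. The rises numbered 6 without β-catΔEx3 array 1, 9 without array 3, and 10 without WT array 2 or after quantile normalization. Nhp2, a protein of small nucleolar RNPs, changed by 1.92 ± 0.18. The 1 fall, Ubtf, a factor of RNA polymerase I, changed by -2.68 ± 0.37, but its probe is 1 of 66 that share a profile, as described next, so it cannot be read as that gene alone.

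Many probes named for unrelated genes moved as 1. Around Ldlrad3, 66 items, 47 of them with a symbol, lay within 0.25 log2 units of a shared profile on every array after each item's mean was removed. That profile was 1.12, 1.04, 0.57 and 2.16 on WT arrays 1 to 4 and -1.29, -1.97 and -1.63 on the mutant arrays. All 66 were lower in β-catΔEx3, with log2 fold changes between -3.03 and -2.60, at mean WT levels between 1.81 and 8.60. They include Eya1, Epha5 and Septin3, genes best known from embryo and nervous system, but also genes outside that theme such as Ung, Sgsh, Pak4 and Tnfrsf9. A second such group of 17 around Oprm1, an opioid receptor, with Snap25, a synaptic protein, was higher by 2.41 to 2.78. No probe sequence was compared and the cause was not tested. Ubtf is the 1 member of either group that is in a gene list used here. The same rule found another pair of groups: 10 items around Serpina1a with log2 fold changes between -1.85 and -1.53, and 29 around Idh2 between 1.51 and 1.94. These hold 5 listed genes, Apoa1, C1ra, Serpina1a, Idh2 and Txnrd1, and the limit given for Ubtf applies to them as well.

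In bulk liver, fewer cells of a type and less RNA per cell cannot be told apart, and this holds for all cell type markers that follow. Kupffer cell and macrophage markers were lower in 13 of 15 tested cases, none higher, with a median of -2.83. Their summed signal, in units of each array's upper-quartile signal, was 317.7 to 491.9 in WT and 30.7 to 87.5 in β-catΔEx3. Adgre1, the F4/80 antigen, fell from 2.46, 3.18, 2.44 and 2.81 to -1.84, -0.30 and -0.10 (-3.47 ± 0.42, adjusted p = 0.00107). Clec4f, found on Kupffer cells alone in the liver, changed by -3.12 ± 0.45, or -2.50 without β-catΔEx3 array 1. With slide as a block none was called, though all 15 were lower in the slide 4 pair. Ccr2, of recruited monocytes, was not above background on enough arrays to be tested.

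Other marker lists of blood and vessel also gave falls. Lymphocyte and NK cell markers fell in 11 of 17 cases (summed signal 68.3 to 77.2 in WT, 21.9 to 51.6 in the mutant, of which Cd4 made up 55.1% to 83.3%), erythroid markers in 7 of 10 (628 to 1368 against 52.96 to 191.2), and neutrophil markers in 5 of 10 with 1 rise, Elane. Without Cd4, which macrophages can also make, the lymphocyte sums overlapped, at 12.9 to 29.5 in WT and 9.805 to 16.6. The summed neutrophil signal overlapped, at 266.4 to 283.4 in WT and 244.9 to 283.4, but Csf3r alone made up 94.2% to 97.6% of it; the other 9 markers summed to 9.56 to 14.9 and 6.72 to 16.6. Untested for want of signal were Cd8a, Cd79a and Ncr1 among lymphocyte markers, Sptb among erythroid ones, and Cxcr2 and Ngp among neutrophil ones. Platelet markers fell in 3 of 6 cases; none of these calls remained without WT array 1, and 1 remained without WT array 2 or 3, β-catΔEx3 array 1 or array 3.

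Endothelial markers fell in 15 of 23 cases and stellate and matrix markers in 10 of 20, none rising, with medians of -0.92 and -1.03. The summed endothelial signal was 221.6 to 256.5 in WT and 105.5 to 141.1 in β-catΔEx3. Among them were 2 sources of the Wnt signal itself. Rspo3, the R-spondin of the central vein, fell from 0.85, 0.56, 0.55 and 0.96 to -1.14, -1.06 and -0.23 (-1.54 ± 0.25, adjusted p = 0.00331). Wnt2, a ligand of the sinusoid, was at background on all mutant arrays. It was 4.48-fold lower against the dimmest signal above background (1.41-fold after normexp, measured means -3.06 and -5.76, adjusted p = 0.000823). With slide as a block 2 endothelial and no stellate markers stayed called.

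Biliary epithelial markers were higher in 5 of 9 tested cases and lower in 1, with a median of 0.93, while Epcam, Cftr and Cldn4 were not above background on enough arrays to be tested. The summed signal was 183.7 to 255.3 in WT and 536.2 to 687.3 in the mutant, but Krt18 and Krt8, keratins that hepatocytes also make, carried 90.9% to 98.7% of it. The other 7 markers summed to 3.36 to 16.7 in WT and 8.09 to 21.2 in β-catΔEx3, ranges that overlap. Mmp7, a matrix protease, stood at -6.61, -5.15, -5.56 and -2.40 in WT, above background on 1 of those arrays, and at 1.55, 1.63 and 1.35 in β-catΔEx3. Its change was 6.44 ± 0.87 (adjusted p = 0.0015), or 7.28 without WT array 4. Krt8 and Krt18 rose by 1.90 ± 0.24 and 1.46 ± 0.20. Without β-catΔEx3 array 1 the biliary count was 3. Pancreatic acinar markers gave 1 fall among 5, and 3 without β-catΔEx3 array 2.

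**Figure D5:**
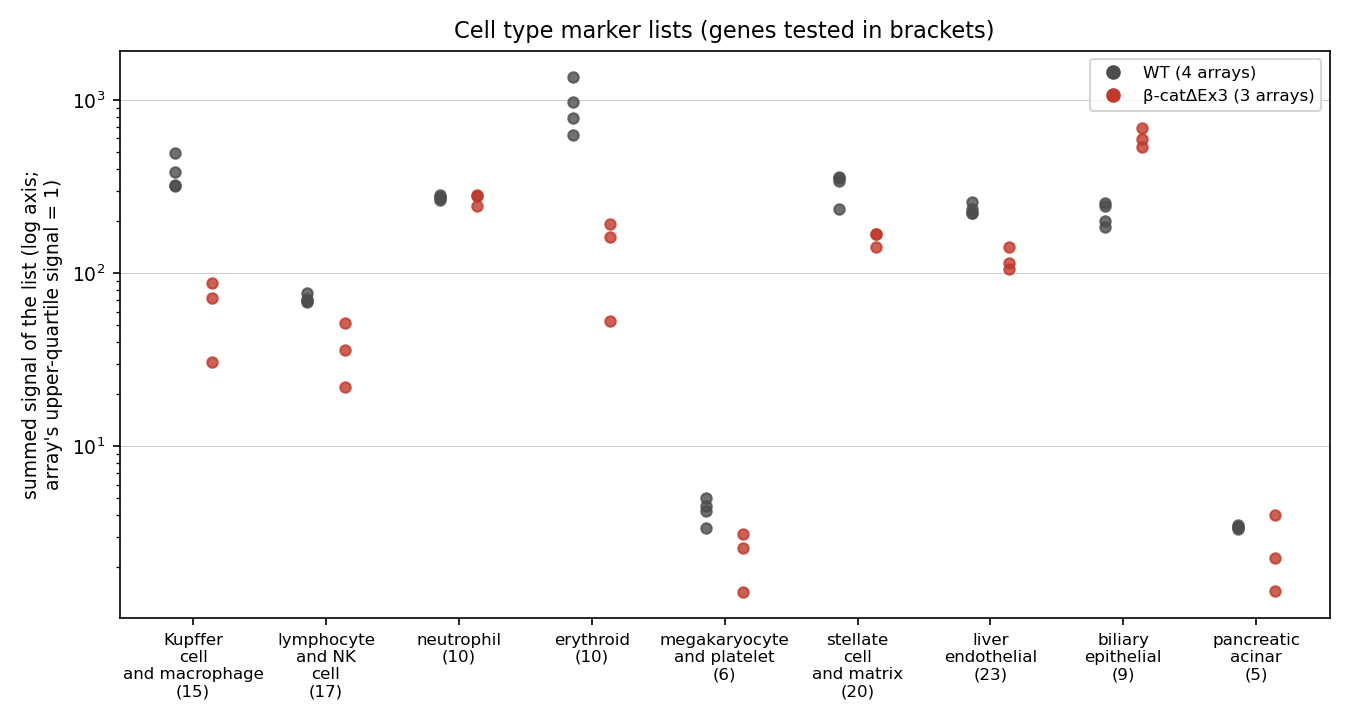
Summed signal of each cell type marker list on every array (y axis, log scale, the array's upper-quartile signal being 1), with grey points for the 4 WT and red for the 3 β-catΔEx3 arrays and the number of tested genes in brackets. The macrophage, lymphocyte, erythroid and endothelial sums are lower on all mutant arrays and the biliary sums higher. The biliary sums are almost wholly Krt18 and Krt8, which hepatocytes also make, the neutrophil sums almost wholly Csf3r, and the lymphocyte sums overlap without Cd4.

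Interferon response genes fell in 20 of 24 cases and 1 rose, with a median of -2.22, and antigen presentation genes in 15 of 16 with a median of -1.92. Oas2, a sensor that makes oligoadenylates, changed by -2.74 ± 0.18 and the guanylate-binding protein Gbp3 from 2.08, 2.96, 1.88 and 1.64 to -1.82, -0.59 and -1.17 (-3.34 ± 0.39, adjusted p = 0.000867). Usp18, which removes ISG15 and damps the interferon receptor, was the 1 that rose, by 0.88 ± 0.22 (adjusted p = 0.016). The class II chain H2-Aa changed by -3.73 ± 0.55 and the immunoproteasome subunit Psmb8 by -2.83 ± 0.40. Macrophage and lymphocyte markers, with 13 of 15 and 11 of 17 lower and the summed signals given above, moved with these genes, and their part in the result was not tested. With slide as a block 6 interferon and 1 antigen presentation genes stayed called.

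Probes for genome regions without a symbol, placed by the files on mm9, numbered 2433 among the items tested, of which 339 were higher and 293 lower. The probe at chr12:110738120-110769295, forward strand, was at background on all WT arrays and stood at 0.17, 1.31 and -0.27 in β-catΔEx3. It was 48.8-fold higher against the dimmest signal above background (5.66-fold after normexp, measured means -5.77 and 0.40, adjusted p = 0.000125). The probe at chr19:36699712-36763966, reverse strand, fell from 2.61, 1.85, 2.06 and 2.50 to -1.95, -2.76 and -3.29. That at chr2:67836003-67836461, forward strand, changed by -5.26 ± 0.43. No gene annotation of that build was used here, so what these regions hold is not stated.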

How the data were processed

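The deposited scanner files hold the spot intensity that Agilent Feature Extraction 10.7.1.1 wrote, per the file headers and the submitters' processing notes; the processed signal (gProcessedSignal) is a background-corrected intensity on a linear scale. The authors' deposited matrix of log2 values served as an alternative. From the scanner files, log2 of the processed signal minus each array's 75th percentile was computed over 55681 probes, spots the scanner marked as outliers and control spots were left out, and 28140 probes well above background on at least 3 of the 7 arrays were kept. For a gene with several probes the brightest was used; 1263 called genes had several, and for 120 of these the probes differed in sign. The groups were fitted with limma 3.58.1 (lmFit, eBayes, R 4.3.3; 2-sided, Benjamini-Hochberg over 21305 items, threshold 0.05), checked on simulated data first.

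With 5 residual degrees of freedom the median standard error was 0.223. The number of arrays limits the precision. Where no array of the lower group was well above background (619 called items) the fold is given against the array's dimmest signal above background. That floor is the dimmest over all probes, so such a fold is no strict lower limit. The folds after normexp, printed beside it, were smaller. Normexp (offset 50) used the median spot signal, since the files hold no mean signal.

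The members, the gene lists (50 lists, 987 entries tested) and the motifs were chosen with earlier results of these data known. Genes were named by rule: in each direction, the 15 called genes with a symbol and the steepest change whose signal exceeded background throughout the brighter group; up to 3 called genes per list with the largest change (or its brightest gene), and Ctnnb1, Myc, Nfe2l2, Axin2, Glul, Cyp2e1 and Afp; other genes, and the shared probe profiles, were picked after their values were seen. Alternatives covered scaling, background, filters, probes, slide, scan day, Xist signal and each array left out. The Xist, scan day and profile analyses were added after seeing the data. Some genes are not reported here.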

Additional observations from a re-analysis of the deposited data

Results flagged for a closer look

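Of 165 named genes, 9 had 1 WT array far from the other 3, with a gap to the nearest of them, as a share of the group's range, above Dixon's 95% critical value for 4 samples. Chance gives about 1 gene in 20, and 9 of 165 is near that share. WT array 4 was the high one for Dppa5a (0.967 of the range), Kel (0.92), Id1 (0.894), Cyp2j5 (0.863), Amdhd1 (0.833) and Fgf1 (0.83). Dppa5a was not well above background on any WT array, so its gap lies within background signal. WT array 2 was high for Cxcl9 (0.845) and Saa3 (0.839), and WT array 1 for Aldoa (0.861). WT array 4 is the WT array of slide 4, which was scanned on another day than slides 1 and 2; the part of slide in these values was not tested.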

How the results depend on the processing

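The numbers of genes called higher (4435) and lower (3432) stayed within 1.5 times under each scaling, background, filter, probe, random slide block, scan day and Xist block setting tried. The exceptions were slide as a fixed block, with 853 higher and 976 lower, and leaving out the arrays with Xist signal, with 746 and 914; every call under these was at least 2-fold. There were 2121 genes at least 2-fold higher in β-catΔEx3 than WT and 2376 genes at least 2-fold lower in β-catΔEx3 than WT, and 1398 and 1294 with normexp. Leaving out 1 array at a time gave 3054 to 4528 higher and 2642 to 3449 lower, and at least 2-fold 1844 to 2318 and 2134 to 2519. Of the 7867 calls, 5062 (64.3%) held in all 7 of these fits, and 84.1% of those at least 2-fold. The share of calls that were higher was 56.4%, and 41.2% when arrays were scaled on probes above background throughout, where the median over all items was -0.09 instead of 0.09. Among named and listed genes the direction turned for Rxra (-0.23 with the mean of its probes) and Aqp9 (-0.01 with slide as a block); the cause was not tested. No paired analysis was possible because the replicate numbers do not tie arrays of the groups together in the labels. Signals near background limit the dimmest genes, whose folds depend on the floor used.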

Other observations

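Imprinted and fetal genes gave 9 rises and 3 falls of 20, with a median of 0.45. Mirg, a noncoding RNA of the imprinted Dlk1 and Meg3 domain, changed by 4.44, Bex2 by 3.49 (2.65 without β-catΔEx3 array 3), Bex1 by 2.65 and Igf2bp3, an RNA-binding protein of fetal tissue, by 1.32, while Mest changed by -1.77. The summed signal of the list was 49.3 to 98.12 in WT and 303.1 to 666.6 in β-catΔEx3. Such a sum is weighted to the brightest members and is no list-wide rise, as 8 of the 20 genes were not called.

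Targets of p53 gave 6 rises and 3 falls of 20, and 3 rises without WT array 3, β-catΔEx3 array 1 or array 3. The death receptors went apart: Tnfrsf10b changed by 2.15 and Fas by -1.85, and Perp, a membrane protein of the same list, by -2.22. Iron handling gave 5 rises and 4 falls of 16, with the transferrin receptor Tfrc higher by 2.30 ± 0.23. Its rises numbered 3 without WT array 1, 2 or 3 or β-catΔEx3 array 2 or 3, and its falls 2 without WT array 1. Cell cycle genes gave 2 rises and 3 falls of 29, with a median of -0.11. Without β-catΔEx3 array 2 they gave 1 rise and 7 falls, with a median of -0.70, and 1 rise without WT array 3 or β-catΔEx3 array 3.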
